A study of Mus musculus with 60 samples.

Results

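The paraoxonase genes Pon1, Pon2 and Pon3 were followed through the fetal brains of 60 pregnant mice, 1 array per dam. They were taken as the rows of the array table whose only gene symbol was one of these names, which gave 1 row for each gene. They are 3 of the 19938 genes that the table names through a row with a single symbol. The study asked how repeated exposure to chlorpyrifos oxon (CPO), into which the body turns the insecticide chlorpyrifos, affects the fetal brain, and how the dam's PON1 status modifies this.

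All mice carried the strain background B6.129. The labelled genotypes were PON1-knockout (KO), wild type (WT), tgHuPON1Q192 (Q-tg) and tgHuPON1R192 (R-tg). The last 2 carry a human PON1 transgene, of the Q192 or of the R192 form. Dams received CPO on gestational days 6 to 17, 12 days in all, and brains were taken on day 18. Arrays labelled KO had doses of 0, 0.50 or 0.75 mg per kg body weight and day (mg/kg/d). Those with the other labels had 0, 0.75 or 0.85. Each of these 12 groups held 5 dams, and the RNA of a dam's fetal brains was pooled. The label of 1 array at R-tg 0.75 gives the dose without its unit. The labels do not say whether the transgenic mice keep the mouse gene, which part of Pon1 the knockout removes, what drives the transgenes, or whether the mouse probes also read human PON1. Dams had been drawn at random after those whose brain acetylcholinesterase lay over 1.5 SD from the mean of their group were set aside.

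The paraoxonases are a family of calcium-dependent esterases and lactonases. PON1 is made mainly by the liver and circulates on high-density lipoprotein (HDL), where it hydrolyses oxidised lipids and the oxon forms of several organophosphates, CPO among them. PON3 has mainly lactonase activity. PON2 stays inside cells, is made in many tissues including brain, and is known for limiting oxidative stress at mitochondria and the endoplasmic reticulum.

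The 3 genes lie side by side on mouse chromosome 6 and are read from the same strand. In the order of the RefSeq gene table, Pon3 is the next gene after Pon1 and Pon2 the one after that. The sequences just upstream of their starts are shown as a description of the genes. Each is the 250 bases before the start, 5′ to 3′ on the minus strand, from RefSeq on build GRCm38.p6. They span chr6:5193947-5194196 for Pon1, chr6:5256234-5256483 for Pon3 and chr6:5298341-5298590 for Pon2. Capitals mark GGGCGG, the GC box core bound by Sp1, searched on both strands, and TATAA, the core of the TATA box, searched on the gene's strand.
Pon1: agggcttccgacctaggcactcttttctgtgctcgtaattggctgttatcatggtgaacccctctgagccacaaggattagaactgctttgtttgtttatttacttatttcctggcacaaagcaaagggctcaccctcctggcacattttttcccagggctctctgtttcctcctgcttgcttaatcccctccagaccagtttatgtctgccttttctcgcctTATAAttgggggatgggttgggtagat
Pon3: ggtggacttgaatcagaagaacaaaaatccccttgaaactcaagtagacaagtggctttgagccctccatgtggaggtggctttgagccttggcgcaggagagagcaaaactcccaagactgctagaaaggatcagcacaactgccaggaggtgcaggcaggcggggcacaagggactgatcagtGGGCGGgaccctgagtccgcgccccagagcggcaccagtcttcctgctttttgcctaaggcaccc
Pon2: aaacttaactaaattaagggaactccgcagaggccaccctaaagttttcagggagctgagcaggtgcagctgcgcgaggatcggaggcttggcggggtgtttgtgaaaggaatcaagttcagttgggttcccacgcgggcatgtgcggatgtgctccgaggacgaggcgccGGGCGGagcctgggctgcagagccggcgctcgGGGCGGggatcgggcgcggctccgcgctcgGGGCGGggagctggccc
The Pon1 stretch held TATAA once, 27 bases before the start, and no GGGCGG. The Pon2 stretch held 3 copies of GGGCGG and the Pon3 stretch 1, and neither held TATAA. Among 32851 mouse promoters of the same length, 32.7% held GGGCGG and 16.0% held TATAA. GC content was 47.6% for Pon1, 56.8% for Pon3 and 65.6% for Pon2, against a median of 52.4%. The Pon2 stretch had 24 CpG dinucleotides, the Pon3 stretch 6 and the Pon1 stretch 3, with a median of 6. These matches describe the letters in these windows and were not tested against the array values.

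Levels are log2 signals, so a difference of 1 is a doubling of the signal. Probes differ in brightness, so no member was called more abundant than another, and the dim level used here is only a rough mark. As a mark of dim signal, the 95th percentile of the means of 1035 olfactory receptor rows was used, which was 6.54. Array medians over the tested rows ran from 7.66 to 7.81. The neuron markers fitted the brain label: all 7 lay above the dim level, with gene means from 10.63 (Neurod6) to 12.89 (Stmn2). Of the 10 liver markers 9 were measured and 6 of these were dim. Alb, the albumin gene, had the lowest mean of the list, 5.39, and reached at most 7.39 in an array. Not dim were Apoa1 (7.58), Trf (8.13) and Ttr (12.64), and Ttr is also on the choroid plexus list. Bulk RNA cannot tell fewer cells of a type from less RNA per cell.

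Pon1 was either low or high, with no array between 7 and 9. In the 15 low arrays the log2 signal ran from 4.84 to 5.67 (median 5.38, mean 5.34 ± 0.22, SD). All 15 lay below the dim level. In the 45 high arrays it ran from 9.72 to 10.14 (median 9.99, mean 9.97 ± 0.10, SD). The spread within the high class was thus small beside the gap between the classes.

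The level of Pon1, the targeted gene of the study, went against the genotype label in 10 of the 60 arrays. The low class held 10 arrays labelled KO, 2 labelled WT, 2 labelled Q-tg and 1 labelled R-tg. The high class held 5 labelled KO, 13 labelled WT, 13 labelled Q-tg and 14 labelled R-tg. Counting the low Q-tg and R-tg arrays as against their label takes the mouse gene to be intact in those mice. Groups are therefore called by their labels, and the low and high classes are not groups of the study. Among high arrays the mean was 9.99 ± 0.08 (SD, n = 13) under WT, 9.94 ± 0.10 (n = 13) under Q-tg, 9.96 ± 0.11 (n = 14) under R-tg and 10.01 ± 0.10 (n = 5) under KO.

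Pon2, the intracellular paraoxonase, was measured above the dim level in all 60 arrays and varied little. Its log2 signal ran from 7.34 to 7.88 (median 7.61, mean 7.61 ± 0.12, SD). Pon3, which encodes a lactonase, ran from 6.43 to 6.99 (mean 6.72 ± 0.11) and lay above the dim level in 58 of 60 arrays. It thus sat close to that level throughout.

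**Figure D1:**
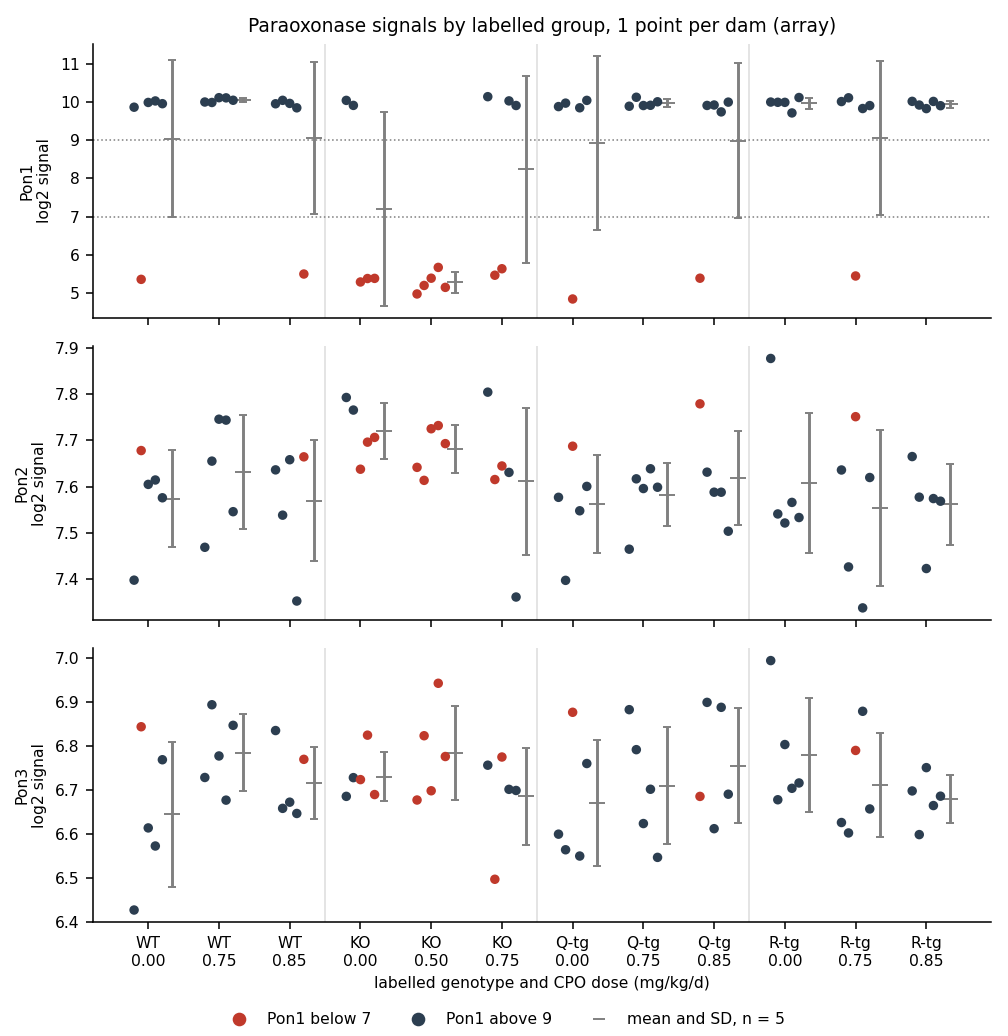
Log2 signal of Pon1 (top), Pon2 (middle) and Pon3 (bottom) in each array by labelled genotype and CPO dose in mg/kg/d. Points are dams, coloured by whether Pon1 lay below 7 or above 9 on that array, and bars are mean and SD of 5 dams. Pon1 splits into 15 arrays from 4.84 to 5.67 and 45 from 9.72 to 10.14, while Pon2 stays between 7.34 and 7.88 and Pon3 between 6.43 and 6.99.

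Pon2 and Pon3 differed little between the labelled groups. The lowest group mean of Pon2 was 7.55 ± 0.17 (SD, n = 5) at R-tg 0.75, from arrays at 7.64, 7.43, 7.75, 7.34 and 7.62. The highest was 7.72 ± 0.06 (SD, n = 5) at KO 0, from 7.79, 7.77, 7.64, 7.70 and 7.71. The R-tg 0.75 arrays reached into the range of the KO arrays, so these groups overlapped. For Pon3 the lowest mean was 6.64 ± 0.16 (SD, n = 5) at WT 0, from 6.43, 6.84, 6.61, 6.57 and 6.77. The highest was 6.78 ± 0.09 (SD, n = 5) at WT 0.75, from 6.73, 6.89, 6.78, 6.68 and 6.85, and these groups overlapped too. When the 12 means were put in order, none of the 11 pairs of neighbours differed by more than 1 SD for Pon1, Pon2 or Pon3. It was so for Pon1 although its group means ran from 5.28 to 10.05, so this count cannot show that groups are alike. An F test over the 12 groups in limma gave F = 1.01 for Pon2 (adjusted p = 0.952) and F = 0.86 for Pon3 (adjusted p = 0.961), with 0% of the 21789 rows called (adjusted p under 0.05). The same test gave F = 3.72 for Pon1 (unadjusted p = 0.000592, adjusted p = 0.95). Unadjusted p-values under 0.05 occurred for Pon1 but not for Pon2 (0.451) or Pon3 (0.584).

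No CPO contrast of Pon2 or Pon3 passed the test. In the 8 contrasts of a dose with dose 0 under the same label, the log2 difference of Pon2 ran from -0.11 at KO 0.75 to 0.06 at WT 0.75, with an SE of 0.07. The 95% confidence intervals (CI) together spanned -0.25 to 0.20, so larger shifts between labelled groups, in either direction, lay outside every interval. That of Pon3 ran from -0.10 at R-tg 0.85 to 0.14 at WT 0.75 (SE 0.07), with intervals that spanned -0.24 to 0.28. Neither gene passed limma's test in any of the 8, where 0% of rows were called, and neither had an unadjusted p under 0.05. The smallest unadjusted p was 0.138 for Pon2 and 0.0563 for Pon3 at WT 0.75 (adjusted p = 0.496). Doses of a label share their controls. The groups follow the labels, which Pon1 went against in 10 of the 60 arrays. These intervals therefore hold for the groups as labelled and set no limit on a CPO effect in groups assigned otherwise.

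For Pon1 the same contrasts ran from -1.93 at KO 0.50 to 1.05 at Q-tg 0.75 with an SE of 1.02, and the groups held different numbers of low arrays. Without the 10 arrays that went against their label, they ran from -0.07 to 0.20, and 0% of rows were called. Pon1 chose those arrays, so small Pon1 values were fixed in advance and support nothing. The 0.20 was KO 0.75 (2 arrays left) against KO 0 (3 left), all below the dim level. Without those 10 arrays, Pon3 at WT 0.75 was 0.19 above dose 0 (SE 0.08, limma adjusted p = 0.347). That value had the lowest adjusted p of Pon2 and Pon3 among the 8 contrasts and still did not pass.

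**Figure D2:**
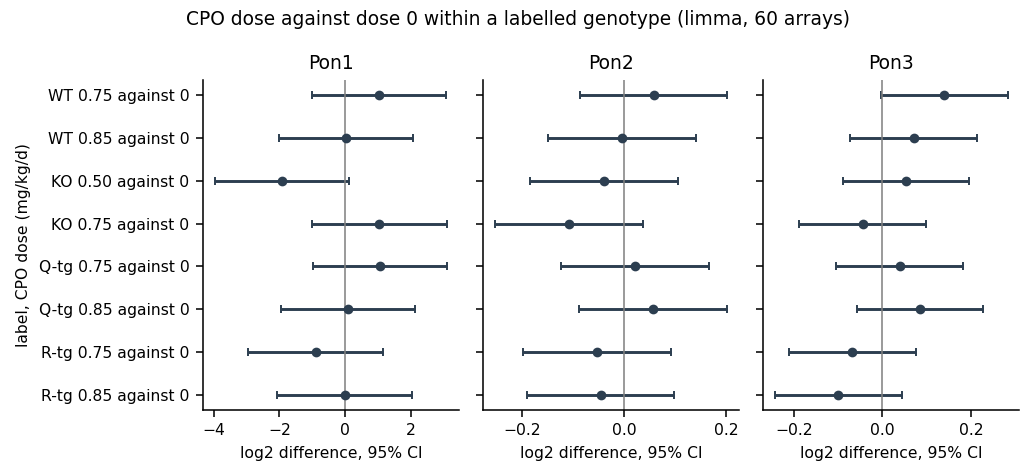
Log2 difference of a CPO dose (mg/kg/d) from dose 0 within each labelled genotype for Pon1, Pon2 and Pon3, with 95% confidence intervals from limma on 60 arrays. The Pon2 values lie between -0.11 and 0.06 and the Pon3 values between -0.10 and 0.14, every interval of these 2 genes holds 0, and the axis of Pon1 is far wider.

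Labelled genotypes were compared at dose 0, where limma called 0% of rows in each of the 4 contrasts. At that dose the KO label held 3 low and 2 high Pon1 arrays, and the WT label 1 low and 4 high. Pon1 was at -1.84 in KO against WT (SE 1.02, adjusted p = 0.999). Pon2 was at 0.15 in KO against WT (SE 0.07, unadjusted p = 0.0485, adjusted p = 0.999), which does not pass. The other Pon2 contrasts at dose 0 ran from -0.01 to 0.05. Pon3 was 0.13 above WT in R-tg, 0.11 above Q-tg in R-tg and 0.09 above WT in KO (SE 0.07), and none had an unadjusted p under 0.05. Averaged over the doses that all labels share, KO minus the other labels was -1.78 for Pon1 (SE 0.59, unadjusted p = 0.00372, adjusted p = 1.0), 0.08 for Pon2 (SE 0.04) and -0.01 for Pon3 (SE 0.04), again with 0% of rows called.

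Differences of the CPO response between labels were tested as such. The response of Pon3 to 0.75 was 0.21 lower in R-tg than in WT on the log2 scale (difference -0.21, SE 0.10, unadjusted p = 0.0449, limma adjusted p = 0.377). In that contrast 0.00459% of rows were called. The 5 response differences of Pon3 ran from -0.21 to 0.01, with -0.18 for KO at 0.75 and -0.17 for R-tg at 0.85. All 5 use the WT 0 arrays, the group with the lowest Pon3 mean (6.64). For Pon2 the 5 response differences ran from -0.17 (KO against WT at 0.75) to 0.06 (SE 0.10), and no unadjusted p was under 0.05.

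Pon2 was slightly higher in the arrays with low Pon1. In the 15 low arrays its log2 signal lay between 7.61 and 7.78 (median 7.69, mean 7.68 ± 0.05, SD), and in the 45 high arrays between 7.34 and 7.88 (median 7.59, mean 7.58 ± 0.12). Each of the 15 low arrays lay above the median of the high class. The classes still overlapped: of the high arrays 28 lay below the lowest low array, 14 within the low arrays' range and 3 above it. The difference, low minus high, was 0.10 (SE 0.03, 95% CI 0.04 to 0.17), with an adjusted p of 0.0221 in limma over all rows. A permutation test of the means gave p = 0.00182 (0.0127 after adjustment over 7 such comparisons). That test shuffled all arrays without regard to labelled group or dose. All 5 arrays at dose 0.50 were in the low class, so the class is partly bound to dose. In this comparison 11.2% of all rows were called, 8.15% higher and 3.05% lower with low Pon1. Pon2 ranked 1589 of 21789 rows by p, so many rows had a smaller p.

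Among the arrays with other labels than KO, Pon2 was 7.68 and 7.66 in the low arrays labelled WT (replicate 2 at dose 0 and replicate 5 at 0.85), 7.69 and 7.78 in those labelled Q-tg (replicate 3 at dose 0 and replicate 1 at 0.85) and 7.75 in the one labelled R-tg (replicate 3 at 0.75). The mean was 7.71 ± 0.05 (SD, n = 5) against 7.57 ± 0.11 (SD, n = 40) with high Pon1. The difference was 0.143, with an exact permutation p of 0.00575 (0.0201 adjusted over 7) and a limma adjusted p of 0.127 over all rows. Each of the 5 low arrays was higher than the mean of the 4 high arrays of its own labelled group, by 0.12 to 0.25.

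Among the arrays labelled KO, the 10 low arrays averaged 7.67 ± 0.04 (SD) and the 5 high arrays 7.67 ± 0.19 (SD), a difference of -0.00037 (exact permutation p = 0.996). The high arrays were spread widely: 7.79 and 7.77 at dose 0 (replicates 1 and 2), and 7.80, 7.63 and 7.36 at 0.75 (replicates 1, 4 and 5). The interval of the KO difference reached from -0.12 to 0.12 and so held the pooled value of 0.10. The test of whether the class difference itself differs between KO and the other labels gave -0.14 (SE 0.08, 95% CI -0.29 to 0.01, unadjusted p = 0.0609, limma adjusted p = 1.0), with 0% of rows called. Across the 7 labelled groups that held both classes, Pon2 was higher with low Pon1 in 6, KO at dose 0 being the exception.

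**Figure D3:**
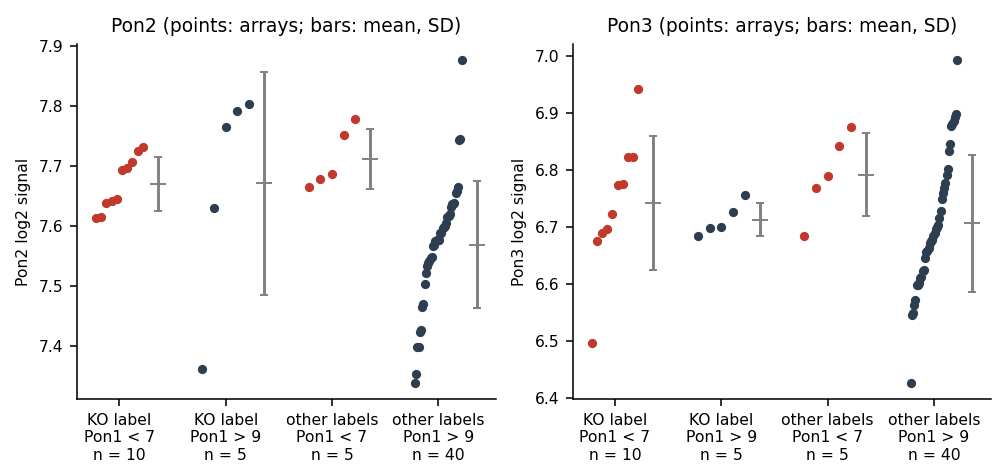
Log2 signal of Pon2 (left) and Pon3 (right) in arrays labelled KO and in arrays with other labels, split by Pon1 below 7 or above 9. Points are arrays and bars mean and SD. Pon2 averages 7.71 against 7.57 under the other labels and 7.67 in both classes under KO.

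Leaving out any 1 array kept the Pon2 call in limma, with adjusted p from 0.00737 to 0.0456 over 60 fits. The call was lost when the 12 labelled groups entered the model (difference 0.09, adjusted p = 0.229), where 4.69% of rows were called. It was also lost without the 10 arrays that went against their label (0.10, adjusted p = 0.0907) and with the labelled dose in the model (0.10, adjusted p = 0.101). Adjusted p over all settings other than leaving out an array ran from 0.0026 to 1.0. The size of the difference stayed between 0.09 and 0.14 in every one of these settings except among the KO arrays alone.

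Pon3 gave no call. It averaged 6.76 ± 0.11 (SD, n = 15) with low Pon1 and 6.71 ± 0.11 (n = 45) with high Pon1, and 11 of the 15 low arrays lay above the median of the high class. The difference was 0.05 (SE 0.03, 95% CI -0.01 to 0.12, limma adjusted p = 0.357, permutation p = 0.127). It was 0.03 among KO arrays (exact permutation p = 0.595) and 0.09 among the other labels (exact permutation p = 0.127). Pon3 was higher with low Pon1 in 5 of the 7 labelled groups that held both classes. An upward shift of up to 0.12 is within its interval, which also holds the Pon2 value, so the data do not show that Pon2 and Pon3 differ in this.

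**Figure D4:**
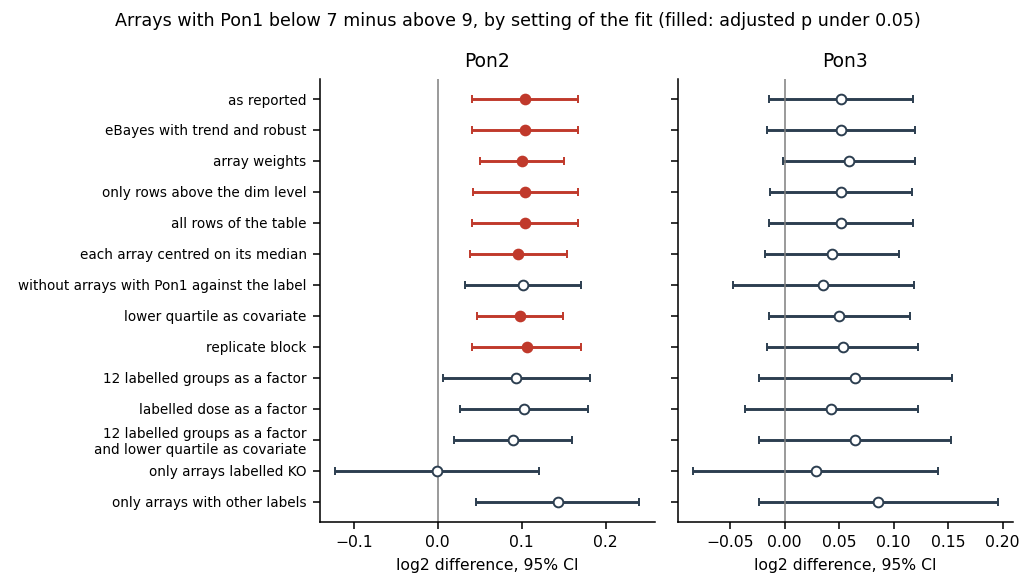
Difference in log2 signal of Pon2 (left) and Pon3 (right) between arrays with Pon1 below 7 and above 9 under each setting of the fit, with 95% confidence intervals. Filled points have an adjusted p under 0.05; the Pon2 value is 0.10 as reported, 0.14 among arrays with other labels than KO and about 0 among arrays labelled KO, and no Pon3 point is filled.

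The region around the genes held other rows that parted the classes. Asb4, which encodes an ankyrin repeat and SOCS box protein and is the sixth gene after Pon1, was 1.22 higher on the log2 scale with low Pon1. Pon3 and Pon2 lie between Pon1 and Asb4, with differences of 0.05, which did not pass, and 0.10. Of the genes next along, Ppp1r9a, 3 places before Pon1, differed by 0.09 and Pdk4, the gene after Asb4, by -0.12. In all, 18 rows (0.0826%) had no overlap between the classes. They name 17 genes, of which 4 are on chromosome 6 (Pon1, Asb4, Calcr and Peg10) and 9 on chromosome 7. These genes outside the family were chosen after their values were seen, and Pon1 itself defined the classes.

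Levels of the members were compared with each other across arrays, 12 relations in all. Pon2 rose with Pon1 among the 45 high arrays (Pearson r = 0.387, permutation p = 0.00907, adjusted 0.0272; Spearman rho = 0.367, permutation p = 0.0142, adjusted 0.0426). Without the 2 arrays of most extreme Pon1, r was 0.453. Among the 15 low arrays, where Pon1 was below the dim level, r was 0.208 (permutation p = 0.458). For Pon3 with Pon1, r was 0.002 in the high arrays (permutation p = 0.989) and -0.022 in the low ones (permutation p = 0.938). The rho of Pon3 with Pon1 in the high arrays was 0.047 (permutation p = 0.757). With each array centred on its median, r of Pon1 with Pon2 in the high arrays was 0.351 (permutation p = 0.0175, adjusted 0.0526), which does not pass.

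Pon2 and Pon3 varied together weakly over the 60 arrays (r = 0.303, permutation p = 0.019, adjusted 0.0456; rho = 0.284, permutation p = 0.029, adjusted 0.0697). Without the 2 arrays of most extreme Pon2, r was 0.313. Within the high class it was 0.258 (permutation p = 0.0863) and within the low class 0.254 (permutation p = 0.367), so it did not pass within either. For deviations from the means of the labelled groups r was 0.247 (permutation p = 0.0572, adjusted 0.0916), and with each array centred on its median it was 0.176 (permutation p = 0.179, adjusted 0.43). Neither passes.

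The relation of Pon1 with Pon2 went along with a property of whole arrays. The lower quartile of an array, the 25th percentile of its log2 signals over the tested rows, correlated with Pon1 among the high arrays at r = -0.796 and rho = -0.769. With each array centred on its median this r was -0.452 (permutation p = 0.00182, adjusted 0.00728). It correlated with Pon2 at r = -0.569 and rho = -0.481 over 60 arrays and at r = -0.653 and rho = -0.552 among the high ones. The permutation p of the Pearson correlation was, for each of these 3 uncentred relations, 1e-05, the smallest that 100000 resamples give (adjusted 4e-05). Without the 2 farthest arrays r was -0.781, -0.510 and -0.592 in the same order. In the 15 low arrays the relation with Pon2 did not pass (r = -0.254, permutation p = 0.359, adjusted 0.49, and rho = -0.279, permutation p = 0.316). Pon3 had r = -0.168 (permutation p = 0.201). The lower quartile itself was 6.35 ± 0.06 (SD, n = 15) with low Pon1 and 6.36 ± 0.08 (n = 45) with high Pon1 (permutation p = 0.768). With it as a covariate the Pon2 difference between the classes was 0.10 (limma adjusted p = 0.0045). Its part in the relation of Pon1 with Pon2 was not tested.

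**Figure D5:**
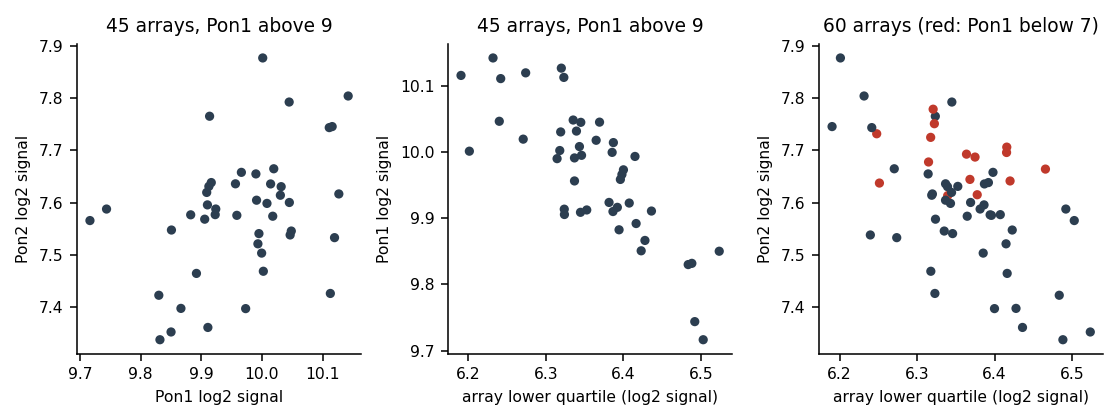
Left, Pon2 against Pon1 in the 45 arrays with Pon1 above 9. Middle and right, Pon1 in the same arrays and Pon2 in all 60 against the lower quartile of each array's log2 signals. Points are arrays, red where Pon1 lay below 7; Pon1 and Pon2 are lower where the lower quartile is higher (r = -0.796, or -0.452 in centred arrays, and -0.569), and Pon2 rises with Pon1 on the left (r = 0.387).

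The genes whose pattern was most like each member were ranked by Pearson r among 17213 genes, as a description. For Pon1 over the 45 high arrays they were Mgat4c (0.859), a glycosyltransferase gene, Rsrc1 (0.855), which acts in splicing, Dync1li1 (0.846), a dynein light intermediate chain, Zc3h14 (0.842), an RNA-binding protein, and Uba3 (0.842), of the NEDD8 activating enzyme. For Pon2 over 60 arrays they were Pld3 (0.716), a lysosomal exonuclease, Abcf3 (0.706), Phax (0.704), an adaptor for RNA export, Hey2 (0.699), a Notch target, and Oxnad1 (0.699). For Pon3 the highest values were lower: Gfra2 (0.596), a receptor for neurturin, Lamc1 (0.552), a laminin chain, Stard8 (0.548), Fam160b2 (0.541) and Mical3 (0.538). All share the arrays and their signal distribution with the member.

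Genes that act with the paraoxonases were compared between the Pon1 classes in the same fit. Over all 21789 rows, 11.2% were called and the median difference, low minus high Pon1, was 0.01. Of the HDL and lipoprotein list 19 of 21 genes were measured, none was called higher and 3 were called lower, with a median of -0.01. Its share of calls was 15.8%, and of all rows 8.15% were called higher and 3.05% lower. Pla2g7, which encodes the platelet-activating factor acetylhydrolase carried on lipoproteins, was 9.46 ± 0.10 (SD, n = 15) with low and 9.76 ± 0.19 (n = 45) with high Pon1, a difference of -0.30 (SE 0.05, adjusted p = 2.25e-05 in limma). Apoe, which encodes apolipoprotein E, was 11.05 ± 0.10 against 11.25 ± 0.12, a difference of -0.20 (SE 0.03, limma adjusted p = 2.62e-05). Lcat, which esterifies cholesterol on HDL, differed by -0.12 (limma adjusted p = 0.0189). Apoa1, the main HDL protein, was 7.58 in both classes. Pla2g7 and Apoe kept their calls with the 12 labelled groups in the model (-0.30, adjusted p = 0.00476, and -0.24, adjusted p = 0.000141) and Lcat did not (adjusted p = 0.19). The share called in that model was 10.5% of the list and 4.69% of all rows. Apoe lies on chromosome 7, 18 protein-coding genes from Ercc2, which is one of the rows that parted the classes.

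Of the genes for activation and detoxication of organophosphates, 24 of 26 were measured and 15 of these were dim. Called were 1 higher, Apeh, an acylpeptide hydrolase that organophosphates inhibit (0.07, SE 0.02, limma adjusted p = 0.0385), and 2 lower. The latter were Bche, butyrylcholinesterase (-0.12, SE 0.04, adjusted p = 0.0288), and Gstm1, a glutathione transferase (-0.10, SE 0.03, adjusted p = 0.0165). Ache, acetylcholinesterase, was at -0.07 (SE 0.03, adjusted p = 0.224). The list's median was -0.01, and its share of calls, 12.5%, was close to the 11.2% over all rows.

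Among regulators of paraoxonase genes, 17 of 19 were measured and 1 was called higher, Srebf2, a regulator of cholesterol synthesis (0.06, SE 0.02, limma adjusted p = 0.0416). Sp1 was at 0.03 (adjusted p = 0.562). Of the antioxidant enzymes 21 of 23 were measured and 1 was called higher, Msra, a methionine sulfoxide reductase (0.10, SE 0.03, limma adjusted p = 0.00693). Shares of 5.88% and 4.76% lay below the share over all rows. With the 12 labelled groups in the model, where 4.69% of all rows were called, none of the organophosphate, regulator and antioxidant genes was called.

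Markers of other cell types are given by counts and levels, with no test. Over all 21789 rows 12193 were higher with low Pon1. All 6 endothelial and pericyte markers were higher with low Pon1 (median difference 0.04), and their mean log2 level ran from 8.81 to 8.96 in low and from 8.72 to 9.01 in high arrays. Of the 5 astrocyte markers 1 was higher (median -0.09), with levels from 9.33 to 9.53 and from 9.38 to 9.77. Of the 7 choroid plexus markers 1 was higher (median -0.09), with levels from 8.29 to 8.63 and from 8.42 to 8.70. Of the 9 liver markers 2 were higher and their level reached at most 7.26 in low and 7.61 in high arrays. The 2 measured erythroid markers were both lower. Of the 5 neural progenitor markers 2 were higher, and of the 4 microglial markers 3. Of the 5 pituitary markers 3 were higher (median 0.00), with levels from 6.11 to 7.03 (median 6.77) in low and from 5.92 to 7.08 (median 6.28) in high arrays. Among them Gh, the growth hormone gene, was 0.96 higher with low Pon1 and ran from 6.42 to 10.73 over the arrays. No defining marker of the first 3 lists was dim. Their part in the differences of Pon2, Pla2g7 and Apoe was not tested.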

How the data were processed

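RNA of each dam's fetal brains was put on an Affymetrix Mouse Gene 1.0 ST array. The deposited values are log2 signals, which the authors made with RMA in oligo under R 2.15.1, per the submitters' processing notes. They were used as deposited. Of 28858 rows, 21789 had 1 symbol in the platform annotation, 1621 several and 5448 none, and the 21789 were tested. Groups came from the labels.

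One model of 12 groups and one of the Pon1 classes (below 7, above 9) were fitted with limma 3.58.1 in R 4.3.3. Tests were 2-sided, with Benjamini-Hochberg adjustment over all tested rows and 0.05 as threshold. Single differences and correlations had permutation tests (100000 resamples, or exact). The text names the 3 members, the 5 genes most like each, and list genes that pass. The members, lists and rules were chosen with earlier results of these data known. In simulated data for the class comparison over 21789 genes, 34% of log2 changes of 0.1 and 96% of changes of 0.25 were recovered. For CPO 0.75 in WT these were 8% and 58%. The simulated data had 50 changed genes at each size and independent noise. In the real class comparison 11.2% of rows were called, so the simulated shares need not carry over to it. The alternatives were other priors, array weights, filters, centring, covariates, a replicate block and leaving out arrays. The number of arrays limits the precision. Scanner values were not used here.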

Additional observations from a re-analysis of the deposited data

Results flagged for a closer look

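In 36 sets of 5 arrays, Dixon's test was run for a single array apart from the other 4, which chance gives in about 1 of 20 sets. That rate does not apply to Pon1, whose values fall into a low and a high class. In all, 8 arrays stood apart. For Pon1 they were the low arrays of groups otherwise high: Q-tg 0 replicate 3 (4.84), Q-tg 0.85 replicate 1 (5.39), R-tg 0.75 replicate 3 (5.45), WT 0 replicate 2 (5.36) and WT 0.85 replicate 5 (5.50). For Pon2, Q-tg 0.75 replicate 1 was low at 7.46, with the others between 7.60 and 7.64. R-tg 0 replicate 1 was high at 7.88, with the others between 7.52 and 7.57; it also had the highest array median of the 60 (7.81) and the highest Pon3 (6.99). For Pon3, KO 0.75 replicate 2 was low at 6.50, with the others between 6.70 and 6.77.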

How the results depend on the processing

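Of 606 alternatives to tested results, 593 stayed on their side of the threshold, 35 of them with a changed sign and no call, 8 lost a call, 4 gained one and 1 turned the sign of a called value. The Pon2 difference between the Pon1 classes lost its call without the 10 arrays against their label (0.102), with the 12 labelled groups (0.094), with the labelled dose (0.103), with groups and lower quartile together (0.0897) and among labels other than KO (0.143), and was -0.00037 among KO arrays. The last 3 settings were chosen after seeing the data. Rows called between the classes numbered 2440 as reported, 4287 with array weights, 740 without the arrays against their label, 1022 with the 12 groups, 1152 with dose, 96 among KO arrays and 359 among the others, the last 2 with fewer arrays. Without the arrays against their label, Pon1 was at -4.61 in KO against WT and -4.53 in KO against the other labels, and its F was 1016. Pon1 chose those arrays, so these values support nothing. With array weights the F of Pon1 was 5.66 (limma adjusted p = 0.0188). With the 12 groups, 0 organophosphate, 0 regulator and 0 antioxidant genes were called, and with centred arrays 2 antioxidant genes. The correlation of Pon2 with Pon3 lost its call for deviations from group means (0.247) and for centred arrays (0.176), and that of Pon1 with Pon2 was 0.351 for centred arrays (permutation p = 0.0175, adjusted 0.0526). For all of these the cause was not tested. Replicate numbers did not pair the arrays: deviations of same-numbered arrays correlated at -0.009 on average, and 8 of 60 arrays correlated best with their own number. With the replicate block the Pon2 difference was 0.106 (limma adjusted p = 0.0247). Leaving out each array gave no call of Pon2 or Pon3 in 520 fits between labels, nor of Pon1 in 220.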
